A study of Mus musculus with 9 samples.

Results

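The genes described here are the 98 symbols starting with Kcn, the stem that mouse nomenclature gives to potassium channels, among the 25239 gene symbols of the deposited expression table. They were taken by that prefix alone, whatever their level. Of the 98, 67 encode pore-forming subunits, 10 encode modifier subunits that form no working channel by themselves, 16 encode auxiliary subunits, and 5 are antisense transcripts or other genes that are no channel. RNA was measured by sequencing of polyadenylated RNA in primary mouse cortical astrocytes, glia grown in culture from the cortex of pups aged 4 days after birth. Control cultures were untreated, and treated cultures received 200 µM hydrogen peroxide (H2O2) for 3 h, were washed, and were harvested 24 h later (day 1) or 72 h later (day 3). Each of the 3 groups has 3 libraries. The labels name no strain, no genetic change, no harvest time for the controls and no untreated group for each day. Time since H2O2 and time in culture can therefore not be told apart. Whether the libraries of a group are separate cultures is not stated either, and the p-values rest on a spread between libraries that may be technical only.

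Potassium channels let potassium ions cross the cell membrane and so set the resting potential. Astrocytes are known for a very negative resting potential and for taking up the potassium that firing neurons release, work in which the inward rectifier encoded by Kcnj10 (Kir4.1) and the sodium pump take the main part. Inward rectifiers (Kcnj) pass current most easily into the cell, tandem-pore channels (Kcnk) leak at rest, voltage-gated channels (Kcna to Kcnd, Kcnh, Kcnq) open on depolarisation, and the Kcnn and Kcnma channels open when calcium rises.

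Library depth ran from 23032594 to 38414668 reads, as worked out from the deposited FPKM (fragments scaled by gene length and by library size), so that 1 FPKM of a 2 kb gene stands for 46.1 to 76.8 reads. The 10 astrocyte markers checked were all above 1 FPKM, with Gfap, the largest term of their sum, at a mean of 1493 FPKM in control. Their summed level was 3131 to 3209 FPKM in control, 2309 to 2596 on day 1 and 2879 to 2914 on day 3. On day 1, 7 of these 10 were lower and 2 higher, against 31.1% each way of all tested genes. On day 3, 4 of the 10 were lower and 0 higher. The cultures also held transcripts of other cell types. The 12 microglial markers summed to 272 to 296 FPKM in control, 105 to 114 on day 1 and 220.4 to 287 on day 3, and the 12 markers of the oligodendrocyte lineage to 647 to 678, 430.0 to 463 and 549.9 to 582 FPKM. On day 1, 10 of 11 tested microglial markers were lower and 1 higher, and 9 of 10 tested oligodendrocyte markers were lower and 1 higher, where 31.1% of all tested genes were lower and 31.1% higher. On day 3 no microglial marker was called, but 7 of the 10 oligodendrocyte markers were still lower, against 6.45% of all tested genes. The sums, in which Olig1 and Cnp are the largest terms, show little of this: Gpr17, Bcas1 and Sox10, picked after their values were seen, averaged 11.8, 13.5 and 19.2 FPKM in control and 2.67, 3.15 and 7.27 FPKM on day 3. Ependymal markers summed to 126 to 139.6 FPKM in control and 74.1 to 83.02 on day 1, with 4 of 4 tested lower. Of fibroblast markers 3 of 4 tested were lower on day 1, among them Dcn (45.1 to 9.01 FPKM), while Col1a1 rose 2.67-fold and carried their sum. No marker of these lists was at 0 in every library. Mural markers went the other way on day 1, with a summed 87.3 to 89.6 FPKM in control and 131.9 to 139 on day 1, and 4 of 5 tested higher. On day 3 they summed to 77.1 to 84.1 FPKM, with 2 higher and 1 lower. Cnn1, the largest term, averaged 51.9 FPKM in control, 77.8 on day 1 and 39.2 on day 3. Neuron markers summed to 31.3 to 32.8 FPKM in control, 36.3 to 38.5 on day 1 and 34.9 to 36.2 on day 3. Most of that was Stmn2, the only neuron marker tested, which was higher on both days. Endothelial markers summed to 12.8 to 13.8, 12.8 to 13.7 and 14.9 to 16.1 FPKM. The part of these shifts in the results below was not tested, and in bulk RNA fewer cells of a type and less RNA per cell cannot be told apart.

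RefSeq promoter windows were at hand for 72 of the 98 genes. The stretches printed here belong to the gene with the highest level (Kcnj10) and, among the genes at a mean of 1 FPKM or more, to those that fell most on day 1 (Kcns1 and Kcnj16) and the one that rose most (Kcnj4). Each is the 250 bases before an annotated start, 5′ to 3′ on the gene's strand, GRCm38.p6. Capitals mark 5 short motifs searched on both strands: the AP-1 site TGANTCA, the antioxidant response element core TGACNNNGC, the cyclic AMP response element TGACGTCA, the GC box GGGCGG and the TATA box TATAAA. An antioxidant core can share its letters with an AP-1 site.
Kcnj10, chr1:172340960-172341209, plus strand: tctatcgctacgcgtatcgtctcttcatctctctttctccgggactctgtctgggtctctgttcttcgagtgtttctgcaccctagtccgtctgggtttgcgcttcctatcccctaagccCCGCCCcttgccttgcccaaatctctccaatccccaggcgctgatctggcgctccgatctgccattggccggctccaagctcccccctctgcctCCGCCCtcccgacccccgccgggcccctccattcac
Kcns1, chr2:164171114-164171363, minus strand: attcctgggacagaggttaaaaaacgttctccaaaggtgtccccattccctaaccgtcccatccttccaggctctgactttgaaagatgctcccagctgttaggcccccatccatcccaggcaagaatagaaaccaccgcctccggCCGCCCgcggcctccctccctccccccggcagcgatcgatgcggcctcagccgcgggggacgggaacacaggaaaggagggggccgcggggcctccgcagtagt
Kcnj16, chr11:111019335-111019584, plus strand: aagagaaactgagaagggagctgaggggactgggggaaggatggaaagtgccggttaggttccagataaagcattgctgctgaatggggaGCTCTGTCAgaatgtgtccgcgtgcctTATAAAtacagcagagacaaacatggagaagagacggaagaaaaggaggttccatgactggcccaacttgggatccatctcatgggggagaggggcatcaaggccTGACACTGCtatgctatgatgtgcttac
Kcnj4, chr15:79505242-79505491, minus strand: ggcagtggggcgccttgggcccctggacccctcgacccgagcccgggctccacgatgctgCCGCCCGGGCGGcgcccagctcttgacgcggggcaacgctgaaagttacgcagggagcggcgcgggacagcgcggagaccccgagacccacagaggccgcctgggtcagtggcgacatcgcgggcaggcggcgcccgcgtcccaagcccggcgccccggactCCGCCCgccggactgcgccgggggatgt
Kcnj16 has 4 windows in the table, and the one shown is the one with the antioxidant core, which occurs 2 times beside 1 TATA box. The stretches of Kcnj10, Kcns1 and Kcnj4 hold GC boxes and none of the other motifs. The 300-base windows run 50 bases past the start, and a gene can have several. The GC box was found in 48.9% of the 45 windows of 27 Kcn genes at 1 FPKM or more. Among all 32851 windows, which were not chosen by level, it was found in 35.7%. The antioxidant core was found in 17.8% against 12.4%, the AP-1 site in 4.44% against 7.81%, the TATA box in 4.44% against 13.6%, and the cyclic AMP element in 0 against 1.79%. All 97 Kcn windows, whatever the level, gave 47.4% for the GC box, 16.5% for the antioxidant core, 4.12% for AP-1 and 5.155% for TATA. The median share of G and C was 58.3% in the 45 windows and 52.7% in all windows, and its part in the matches was not tested. Among the 30 windows of genes lower on day 1 the antioxidant core was in 6. A match is a description of letters and no evidence of binding.

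Of the 98 Kcn genes, 34 (34.7%) reached a mean of 1 FPKM over the 9 libraries, against 49.97% of all genes in the table. A further 32 lay between 0.1 and 1 FPKM, 27 were lower but detected, and Kcna10, Kcnk15, Kcnk16, Kcnmb4os1 and Kcnv2 had no read in any library. By group, 33 genes averaged 1 FPKM or more in control, 30 on day 1 and 33 on day 3. Pore-forming genes made up 25 of the 34, modifiers 3, auxiliary subunits 5, and 1 was the antisense transcript Kcnd3os. A single gene carried most of the RNA: Kcnj10 took 53.8% to 57.0% of the summed FPKM of all Kcn genes in every library, and its level lay at the 99.5th percentile of all genes. After it came Kcne1l, Kcnk2, Kcna6, Kcnd3 and Kcnk1, the only others at a mean of 10 FPKM or more.

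**Figure D1:**
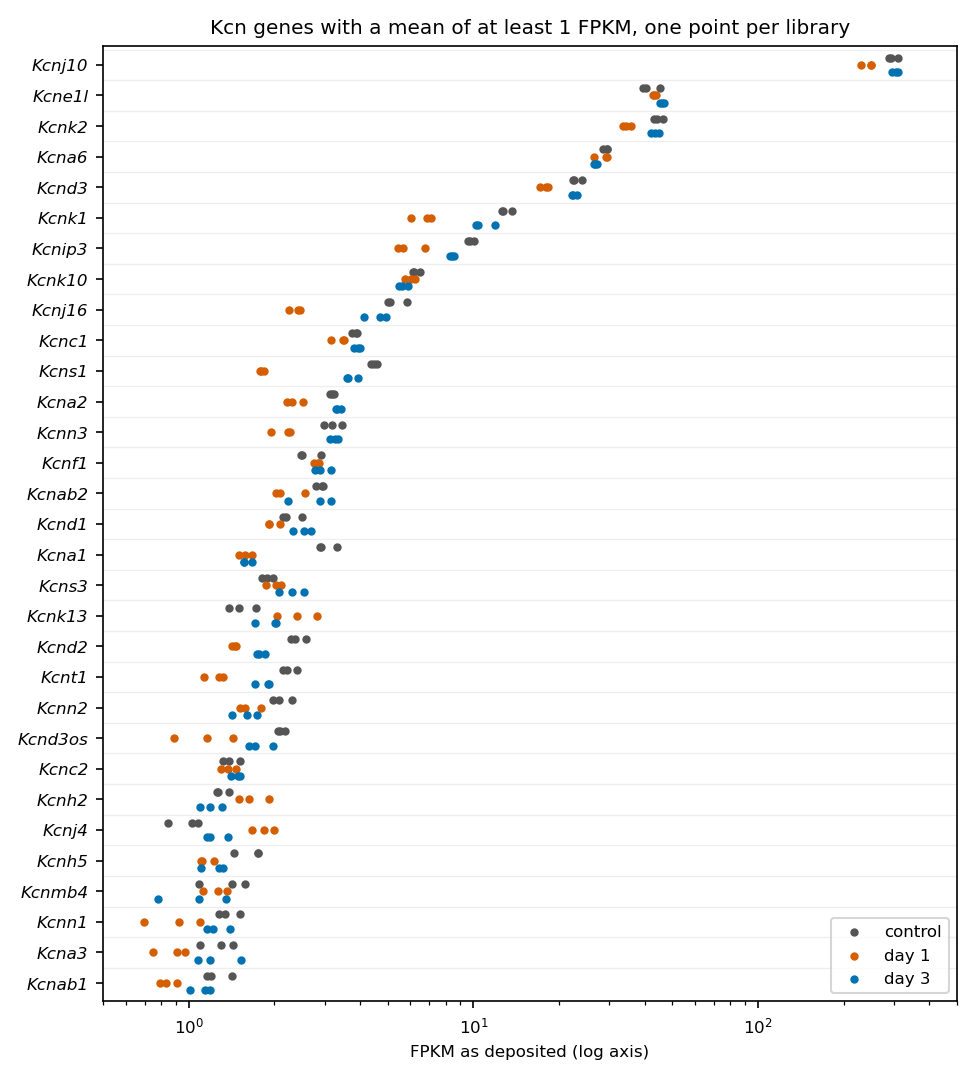
Level of 31 of the 34 Kcn genes that averaged 1 FPKM or more, with FPKM as deposited on a log axis and 1 point per library in grey (control), orange (day 1) and blue (day 3). Kcnj10 stands far to the right of the rest, and for Kcns1, Kcnj16 and Kcnk1 the 3 orange points lie left of all other points of the gene.

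The subfamilies differed in how many members were present. All 3 Kcnd genes reached 1 FPKM, as did 3 of 4 Kcnn, 2 of 3 Kcns, 2 of 3 Kcnab and 4 of 8 Kcna genes. Most genes of other subfamilies stayed below that level, with 3 of 15 Kcnj, 4 of 14 Kcnk, 2 of 8 Kcnh and 1 of 5 Kcne genes at it. Kcnip, Kcnmb and Kcnt each had 1 such gene, Kcnf1 stands alone in its subfamily, and no member of Kcng, Kcnv, Kcnma or Kcnu reached it. The summed level of Kcnj was 307 ± 10.4 FPKM in control (mean ± SD, n = 3, as for all levels here), 249.7 ± 11.99 on day 1 and 312 ± 9.003 on day 3. Kcnk summed to 67.4 ± 2.25, 52.1 ± 1.22 and 64.0 ± 1.297 FPKM, and Kcnd to 27.7 ± 0.742, 21.2 ± 0.670 and 26.9 ± 0.293 FPKM. Kcna stood at 37.8 ± 0.684, 33.7 ± 1.98 and 33.6 ± 0.608 FPKM, a sum that was still low on day 3. Kcnn summed to 7.08 ± 0.179, 4.93 ± 0.136 and 6.44 ± 0.0491 FPKM. All Kcn genes together came to 543 ± 10.8, 447 ± 17.7 and 539 ± 8.97 FPKM, and without Kcnj10 to 246 ± 5.49, 204.0 ± 6.15 and 236 ± 1.13 FPKM. The day 1 libraries were below the controls in each of these sums, and no test was run on them.

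**Figure D2:**
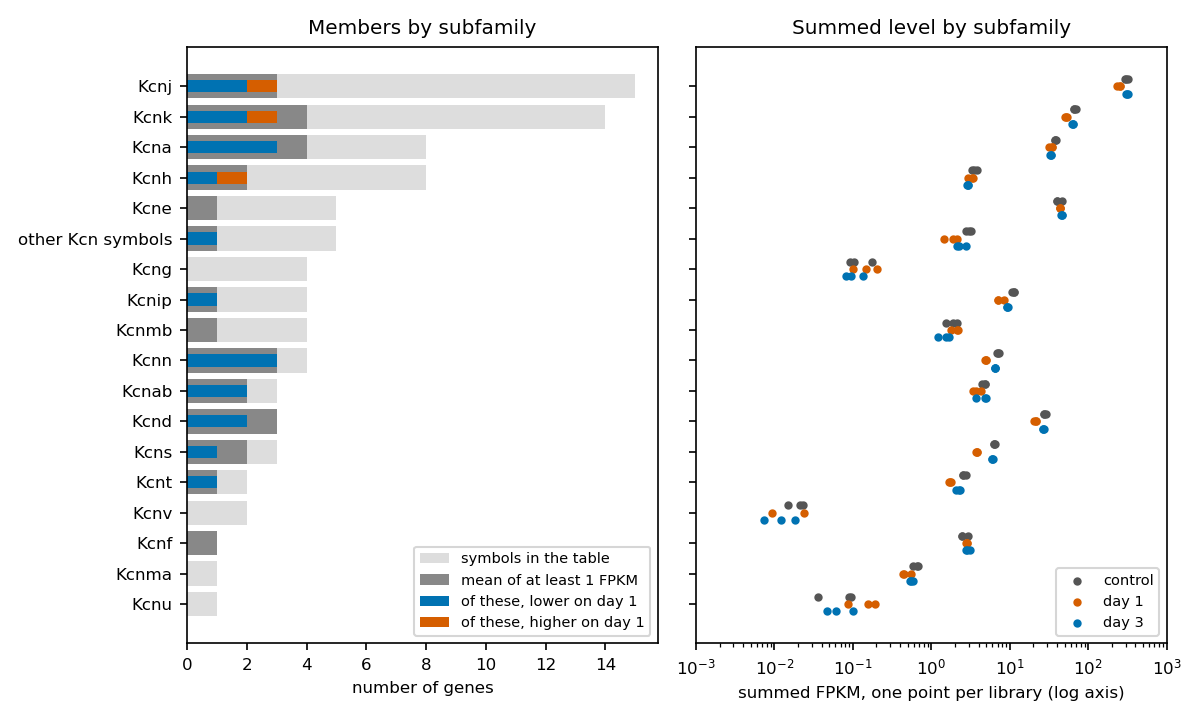
Left, for 18 Kcn subfamilies and groups, the number of symbols in the table, of genes at a mean of 1 FPKM or more, and of those called lower or higher on day 1. Right, the summed FPKM of each subfamily on a log axis with 1 point per library (a day 1 library with Kcnv at 0 has no point): the Kcnj sum is the highest, and its day 1 points lie left of the others.

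On day 1 after H2O2 most expressed potassium channel genes were lower than in control. Of the 34 tested, 22 were lower and 3 higher at a limma adjusted p under 0.05 (Benjamini-Hochberg over 12611 genes). Among all genes tested 62.2% were called, 31.1% lower and 31.1% higher, whereas 64.7% of the Kcn genes were lower. The median log2 fold change was -0.34 for the 34 Kcn genes and -0.0014 for all genes tested. The 3 libraries of each group did not overlap for 27 of the 34, in the lower direction for 24, against 66.1% and 37.3% of all genes. With quantile normalization the split was 15 lower and 5 higher, and Kcna3, Kcnab1, Kcnab2, Kcnc1, Kcnh5, Kcnn1 and Kcnn2 lost their calls. Without control replicate 3 the number of higher genes was 5. Fold changes below come from log2(FPKM + 0.1), a scale that understates the change of low genes.

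**Figure D3:**
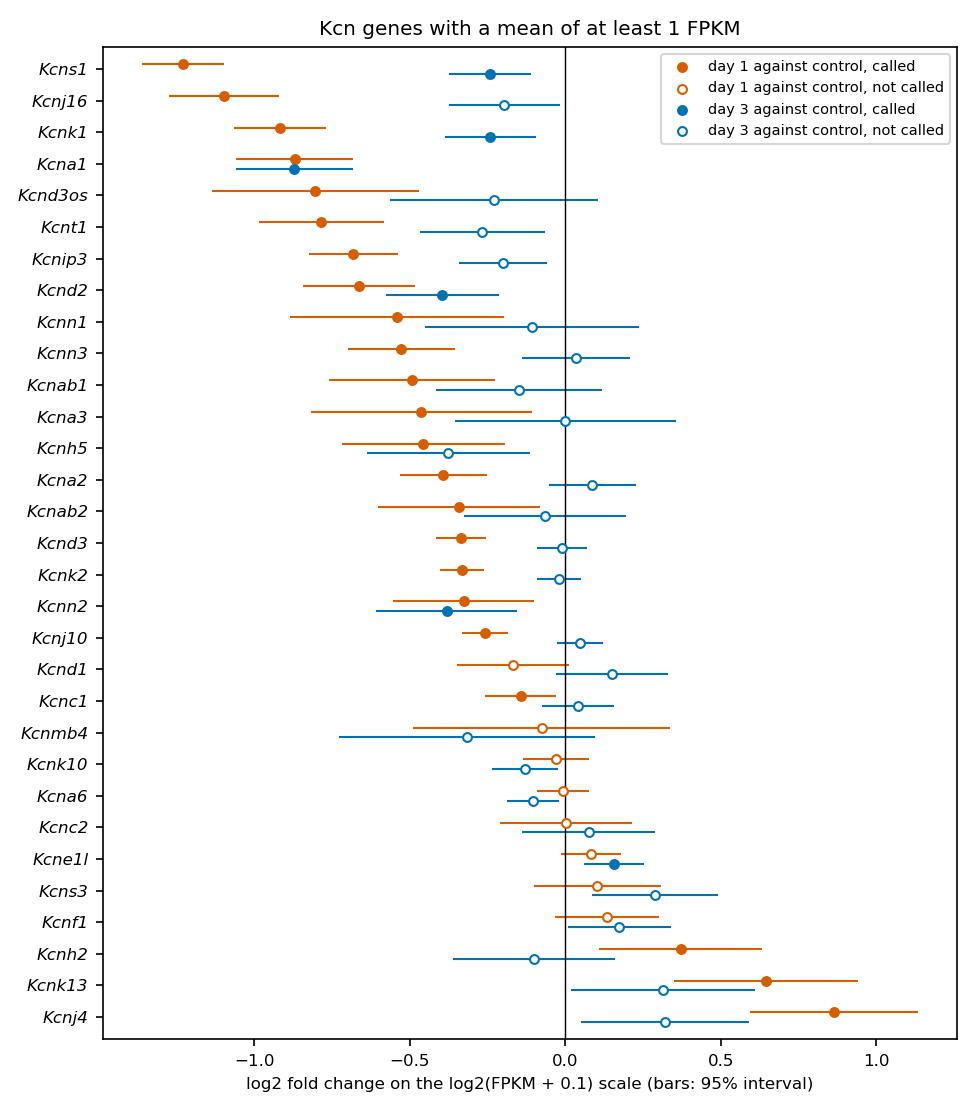
Log2 fold change of 31 of the 34 Kcn genes on day 1 (orange) and day 3 (blue) against control, with 95% intervals not adjusted for the number of genes; filled points passed an adjusted p of 0.05. Orange points lie mostly left of 0, from -1.23 for Kcns1 to 0.87 for Kcnj4, and most blue points lie nearer to 0, with Kcna1 at -0.87 on both days.

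Inward rectifiers went both ways on day 1. Kcnj10 (chromosome 1, 172341210 to 172374085, GRCm38.p6) was at 289, 309.7 and 294 FPKM in the control libraries, 249.9, 250.2 and 229.6 on day 1, and 311, 294 and 306 on day 3. All day 1 libraries were below all others, and control and day 3 libraries overlapped. The day 1 level was 1.20-fold lower (95% interval of the ratio 0.795 to 0.880, limma adjusted p = 5.89e-05), and day 3 exceeded day 1 by 1.24-fold (limma adjusted p = 2.34e-05). Against control the day 3 ratio had an interval of 0.982 to 1.09. Kcnj16, whose subunit joins that of Kcnj10 in mixed channels sensitive to pH, was at 5.86, 5.03 and 5.10 FPKM in control, 2.47, 2.43 and 2.24 on day 1, and 4.68, 4.13 and 4.95 on day 3. Its day 1 libraries were again the lowest, and control and day 3 libraries lay near each other without overlap. The fall on day 1 was 2.14-fold (log2 fold change -1.10, SE 0.081, limma adjusted p = 9.5e-07), and the rise from day 1 to day 3 was 1.87-fold. Kcnj4, which encodes a strong inward rectifier best known from forebrain neurons, was at 1.03, 0.847 and 1.08 FPKM in control, 1.67, 1.99 and 1.84 on day 1, and 1.37, 1.15 and 1.19 on day 3. The 3 groups did not overlap, with day 1 highest and control lowest. Kcnj4 rose 1.82-fold on day 1 (log2 fold change 0.87, SE 0.12, limma adjusted p = 0.000116) and fell 1.46-fold from day 1 to day 3. At 67 to 119 reads a library it is a gene of low depth.

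Of the tandem-pore leak channels, Kcnk2 (TREK-1, opened by stretch and lipids) was at 44.0, 43.2 and 46.4 FPKM in control, 34.3, 35.8 and 33.6 on day 1, and 44.8, 42.0 and 43.5 on day 3. Day 1 lay below both other groups, which overlapped. It fell 1.26-fold on day 1 (limma adjusted p = 7.79e-06). Kcnk1 (TWIK-1, a weakly conducting leak channel) was at 12.6, 12.7 and 13.6 FPKM in control, 6.89, 7.10 and 6.04 on day 1, and 10.2, 10.4 and 11.95 on day 3. Its groups formed 3 separate levels, lowest on day 1. The fall was 1.89-fold on day 1 (log2 fold change -0.92, SE 0.066, limma adjusted p = 8.51e-07). Kcnk10, a relative of Kcnk2, was at 6.14, 6.504 and 6.18 FPKM in control, 6.24, 6.04 and 5.74 on day 1, and 5.49, 5.88 and 5.62 on day 3. It passed the test in no comparison, and the interval of its day 1 ratio was 0.909 to 1.05. By limma-voom it was lower on day 3 than in control (log2 fold change -0.13, adjusted p = 0.0265). Kcnk13 (THIK-1), a leak channel best known from microglia, was at 1.72, 1.39 and 1.4996 FPKM in control, 2.39, 2.04 and 2.82 on day 1, and 2.02, 2.01 and 1.71 on day 3. All day 1 libraries were above the control libraries. It rose 1.56-fold on day 1 (log2 fold change 0.65, SE 0.13, limma adjusted p = 0.00166). Of the 11 tested microglial markers 10 were lower on day 1, while Tmem119 went from 8.76 to 14.8 FPKM. A link of Kcnk13 to these markers was not tested. On exon annotation (GENCODE M21), 12.2% of the exonic bases of Kcnk2 and 8.01% of those of Kcnk1 are shared with a gene on the other strand, and no source used here gives the strand setting of the authors' counting.

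Among the delayed rectifiers of the Kcna subfamily, which in neurons line axons and set firing, Kcna6 was the highest, at 29.5, 28.5 and 29.5 FPKM in control, 29.4, 29.3 and 26.5 on day 1, and 26.5, 26.7 and 27.3 on day 3. Control and day 1 overlapped (ratio interval 0.939 to 1.05), and 39.6% of its exonic bases are shared with Gm26673 on the opposite strand. Kcna1 was at 3.32, 2.91 and 2.90 FPKM in control, 1.57, 1.67 and 1.51 on day 1, and 1.57, 1.56 and 1.67 on day 3. Both treated groups lay in the same narrow range, below every control. It fell 1.83-fold on day 1 (log2 fold change -0.87, SE 0.085, limma adjusted p = 7.79e-06). Kcna2 went from 3.18 ± 0.0573 to 2.35 ± 0.158 FPKM on day 1, a 1.31-fold fall (limma adjusted p = 0.000312). Kcna3, a channel well known from T cells and microglia, went from 1.27 ± 0.166 to 0.876 ± 0.113 FPKM, a 1.38-fold fall (limma adjusted p = 0.0274). That call was lost without control replicate 1 (limma adjusted p = 0.101), control replicate 2 (0.0644) or day 1 replicate 3 (0.0913), with quantile normalization (0.238), and without control replicate 1 and day 3 replicate 2 together, the libraries with most ribosomal precursor RNA (0.0754).

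Of the fast Kcnc channels, Kcnc1 went from 3.83 ± 0.0696 to 3.39 ± 0.1902 FPKM, only 1.10-fold lower (limma adjusted p = 0.0332). Its call was lost on leaving out control replicate 1, 2 or 3 or day 1 replicate 2 or 3, with adjusted p values of 0.0639, 0.0662, 0.0731, 0.0506 and 0.115 in that order. Kcnc2, with 1.41 ± 0.0959 FPKM in control against 1.38 ± 0.0870 on day 1, passed in no comparison.

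Of the 3 A-type channel genes of the Kcnd subfamily, whose channels open briefly on depolarisation, 2 were called lower on day 1, as was a gene of their auxiliary subunits. Kcnd3 was at 22.6, 24.0 and 22.4 FPKM in control, 17.975, 18.3 and 17.1 on day 1, and 22.4, 23.2 and 22.2 on day 3. Its day 1 libraries were all below the others. The fall was 1.26-fold (limma adjusted p = 1.51e-05). Kcnd2 was at 2.58, 2.36 and 2.28 FPKM in control, 1.46, 1.42 and 1.46 on day 1, and 1.76, 1.73 and 1.85 on day 3. The 3 groups did not overlap, with control highest and day 1 lowest. Kcnd2 fell 1.58-fold on day 1 (log2 fold change -0.66, SE 0.082, limma adjusted p = 4.4e-05). Kcnd1 had 2.29 ± 0.192 FPKM in control against 1.98 ± 0.107 on day 1 and did not pass (ratio interval 0.786 to 1.01). Its day 1 libraries were nevertheless all below the controls, and with no intensity trend it was called lower (limma adjusted p = 0.0485). Kcnip3, which encodes a calcium-binding subunit of these channels that is also known as the repressor DREAM, was at 9.56, 10.1 and 9.76 FPKM in control, 5.67, 6.77 and 5.44 on day 1, and 8.30, 8.54 and 8.43 on day 3. Its day 1 libraries were the lowest and its day 3 libraries stood between the other groups. It fell 1.60-fold on day 1 (log2 fold change -0.68, limma adjusted p = 6.02e-06). The antisense transcript Kcnd3os was at 2.18, 2.05 and 2.10 FPKM in control, 1.43, 0.889 and 1.16 on day 1, and 1.71, 1.98 and 1.62 on day 3. All its day 1 libraries were below the others. Kcnd3os fell 1.75-fold (log2 fold change -0.80, SE 0.15, limma adjusted p = 0.000849). Of its exonic bases, 12.2% lie in Kcnd3 exons on the other strand. With no strand setting given, whether reads of the pair were told apart is not known.

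The modifier subunits split. Kcns1, whose protein joins delayed rectifier channels and changes their gating, was at 4.58, 4.46 and 4.37 FPKM in control, 1.84, 1.80 and 1.78 on day 1, and 3.60, 3.62 and 3.94 on day 3. The groups stood at 3 separate levels, and the day 1 libraries differed from each other by less than 0.1 FPKM. Its 2.35-fold fall on day 1 was the largest among the 34 genes (log2 fold change -1.23, SE 0.059, limma adjusted p = 5.97e-08). Kcns3 and Kcnf1 passed in no comparison, but some of the other settings tried called them higher. Kcns3 was at 1.89 ± 0.0796 FPKM in control, 1.99 ± 0.119 on day 1 and 2.31 ± 0.233 on day 3, and Kcnf1 at 2.63 ± 0.2402, 2.82 ± 0.0524 and 2.94 ± 0.195 FPKM. Kcns3 was higher than control on day 3 by limma-voom (adjusted p = 0.0339), with quantile normalization (0.0362), with no intensity trend (0.0451) and without day 3 replicate 3 (0.0460), the last also against day 1 (0.0427). On day 1 quantile normalization called Kcns3 (limma adjusted p = 0.0456) and Kcnf1 (0.0337) higher, and Kcnf1 also passed without control replicate 3 (0.0419).

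The 3 expressed small-conductance channels of the Kcnn subfamily, opened by calcium through calmodulin, were all lower on day 1. Kcnn3 was at 3.19, 3.46 and 2.98 FPKM in control, 2.26, 2.24 and 1.94 on day 1, and 3.34, 3.28 and 3.13 on day 3. Only day 1 stood apart, below both other groups. Kcnn3 fell 1.44-fold (log2 fold change -0.53, limma adjusted p = 0.000161). Kcnn1 fell 1.46-fold, from 1.37 ± 0.121 to 0.903 ± 0.200 FPKM (limma adjusted p = 0.0112). Kcnn2 was at 2.08, 1.97 and 2.30 FPKM in control, 1.80, 1.52 and 1.58 on day 1, and 1.60, 1.42 and 1.74 on day 3. Every treated library was below every control, and day 1 and day 3 overlapped. Kcnn2 fell 1.25-fold on day 1 (limma adjusted p = 0.0171), a call lost without control replicate 3 (0.0652) or day 1 replicate 2 (0.0635). The sodium-activated channel gene Kcnt1 fell 1.72-fold, from 2.26 ± 0.134 to 1.24 ± 0.0997 FPKM (limma adjusted p = 2.68e-05). Kcnmb4, a beta subunit of the large-conductance calcium-activated channel, averaged 1.36 ± 0.253 FPKM in control against 1.25 ± 0.118 on day 1, with 24 to 61 reads a library, and did not pass. It shares 20.9% of its exonic bases with the antisense transcript Kcnmb4os2. The pore gene of that channel, Kcnma1, was at 0.638 ± 0.0490 FPKM in control, below the level of 1 FPKM. By limma-voom Kcnma1 was lower on day 1 (log2 fold change -0.36, adjusted p = 0.0223), a call that limma on log2 values did not make (adjusted p = 0.0663).

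Within the Kcnh subfamily the genes moved in opposite directions. Kcnh2 (the ERG channel that repolarises heart muscle) was at 1.26, 1.26 and 1.38 FPKM in control, 1.501, 1.63 and 1.91 on day 1, and 1.09, 1.19 and 1.31 on day 3. Day 1 lay above both other groups. It rose 1.29-fold on day 1 (log2 fold change 0.37, SE 0.12, limma adjusted p = 0.0184), a call lost without control replicate 2 (0.0546) or day 1 replicate 3 (0.0755). Kcnh5, an EAG-type channel, fell 1.37-fold from 1.65 ± 0.179 to 1.15 ± 0.0705 FPKM (limma adjusted p = 0.00621).

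Of the auxiliary genes outside Kcnip that reached 1 FPKM, Kcnab1 and Kcnab2 were lower on day 1, and Kcne1l and Kcnmb4 did not pass. Kcne1l, an X-linked gene that RefSeq also lists as Kcne5 and that encodes a small subunit of voltage-gated channels, was at 39.5, 40.3 and 45.4 FPKM in control, 42.6, 43.7 and 43.1 on day 1, and 45.2, 46.6 and 46.1 on day 3. Control replicate 3 stood above the other controls and inside the range of the treated libraries. On day 1 the gene did not pass (ratio interval 0.991 to 1.13), but without that control library it did, with a log2 fold change of 0.14 in place of 0.08 (limma adjusted p = 0.00337). The cytoplasmic beta subunits Kcnab1 and Kcnab2, which bind Kcna channels, fell 1.41-fold (1.26 ± 0.141 to 0.846 ± 0.0575 FPKM, limma adjusted p = 0.00448) and 1.27-fold (2.90 ± 0.0931 to 2.23 ± 0.294 FPKM, limma adjusted p = 0.0269). The Kcnab2 call was lost when control replicate 2 (0.0660), control replicate 3 (0.0602), day 1 replicate 1 (0.0929) or day 1 replicate 3 (0.0769) was left out.

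By day 3 fewer of these genes passed the test against control. Of the 34, 5 were lower than control (Kcna1, Kcnd2, Kcnk1, Kcnn2 and Kcns1) and Kcne1l was higher, where 13.8% of all tested genes were called, 6.45% lower and 7.37% higher. By limma-voom 13 were called, 11 lower and 2 higher: Kcna6, Kcnh5, Kcnip3, Kcnj16, Kcnk10 and Kcnt1 were lower in addition, with log2 fold changes of -0.10, -0.41, -0.20, -0.19, -0.13 and -0.28, and Kcns3 was higher. No share of all genes called by limma-voom is given at this level. The 13 can therefore not be set against the 13.8%, which comes from limma on log2 values. The groups did not overlap for 16 of the 34, in the lower direction for 13, against 30.3% and 17.8% of all genes. The median log2 fold change was -0.08 for the Kcn genes and 0.01 for all genes. As given above, 7 of 10 oligodendrocyte and 4 of 10 astrocyte markers were lower on day 3 as well, and their part in these calls was not tested. Kcna1 was 1.83-fold below control, as far as on day 1 (log2 fold change -0.87, SE 0.085, limma adjusted p = 0.000187), and between the days its ratio had an interval of 0.877 to 1.14. This was the only one of the 6 calls that held under all 21 other settings tried, with adjusted p values from 7.89e-10 to 0.00268. Kcnd2 was 1.32-fold below control (limma adjusted p = 0.0101), and lost its call without control replicate 1 and day 3 replicate 2 together (0.0847) and at a threshold of 0.01.

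The other day 3 calls were lost when any of several single libraries was left out, while the fold changes moved little. Kcns1 was 1.18-fold below control (limma adjusted p = 0.0221), and missed the threshold once control replicate 1 (0.0830), control replicate 2 (0.0576), day 3 replicate 1 (0.0907) or day 3 replicate 2 (0.0554) was left out. Its log2 fold change was -0.24, and -0.21 to -0.25 in those fits. Kcnk1 was 1.18-fold lower (limma adjusted p = 0.0363), and did not pass without any 1 of the 3 controls (0.0778, 0.0656 and 0.1198) or day 3 replicate 1 (0.134) or 2 (0.0891), with log2 fold changes of -0.19 to -0.26 in place of -0.24. Kcnn2 was 1.302-fold lower (limma adjusted p = 0.0327), with the call lost when control replicate 1 (0.0829), control replicate 3 (0.114), day 3 replicate 1 (0.0893) or day 3 replicate 2 (0.0902) was left out, and a log2 fold change of -0.32 to -0.38 in place of -0.38. Kcne1l was 1.12-fold higher (limma adjusted p = 0.0363). It overlapped control and lost its call in 13 of the 21 settings, among them the FPKM as deposited (0.0723) and the fits without control replicate 1 or 2, day 1 replicate 1 or 2, or any single day 3 replicate (0.0517 to 0.119). Without control replicate 1, or without day 3 replicate 1 or 2, the number of Kcn genes called on day 3 was 2. Without control replicate 2 it was 3, and without day 1 replicate 3 it was 8.

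Most of these genes were higher on day 3 than on day 1, a difference in which time since H2O2 and time in culture cannot be told apart. Of the 34, 19 were higher on day 3 than on day 1 and 3 were lower, where 56.2% of all tested genes were called, 27.9% higher and 28.4% lower. The groups did not overlap for 23, in the lower direction for 3, against 61.8% and 28.9% of all genes. Of the 22 genes lower on day 1, 18 rose, 5 were also lower than control on day 3, and 2 (Kcnab2 and Kcnh5) passed in neither comparison. Other settings did call them. Kcnab2 rose by limma-voom (adjusted p = 0.0456) and without day 1 replicate 2 (limma adjusted p = 0.0279) or day 3 replicate 2 (0.00714). Kcnh5 was lower than control on day 3 by limma-voom, as given above. Of all 3916 genes lower on day 1, 78% rose and 14.7% were also lower on day 3, so that the share of Kcn genes that rose was near that of all such genes. The largest rises were those of Kcns1 (1.98-fold, limma adjusted p = 4.2e-07), Kcnj16 (1.87-fold, 5.93e-06), Kcnk1 (1.60-fold, 1.14e-05), Kcnd3os (1.49-fold, 0.00776) and Kcnn3 (1.48-fold, 0.000132). This comparison and that of day 1 with control share the day 1 libraries. Kcnd1 rose as well, 1.25-fold (limma adjusted p = 0.00681), to 2.52 ± 0.186 FPKM. The falls were those of Kcnj4 (1.46-fold, limma adjusted p = 0.00315), Kcnh2 (1.39-fold, 0.00604) and Kcna6 (1.07-fold, 0.0488). The Kcna6 groups overlapped, and its call was lost in 17 of 21 settings, including each that left out a control, a day 3 library or day 1 replicate 1 or 2 (0.0549 to 0.154). Rises of Kcna3, Kcnab1, Kcnd2 and Kcnn1 were lost on leaving out some day 1 or day 3 libraries: Kcna3 without day 1 replicate 2 (0.0539) or 3 (0.0999) or day 3 replicate 2 (0.122), Kcnd2 without day 1 replicate 2 (0.0519) or day 3 replicate 3 (0.0567). Kcnab1 lost it without day 1 replicate 1 (0.0683) or 3 (0.0799) or day 3 replicate 1 (0.0786) or 3 (0.0960), and Kcnn1 without day 1 replicate 1 (0.124) or 3 (0.0544) or day 3 replicate 1 (0.0604) or 2 (0.12). Kcnc2, Kcnf1, Kcnk10, Kcnmb4 and Kcns3 passed in no comparison, apart from the other settings given above for Kcnf1, Kcnk10 and Kcns3.

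Below 1 FPKM the picture was mixed. The 32 genes of 0.1 to 1 FPKM were tested with limma-voom on the reads worked out from the FPKM, an alternative chosen after the data were seen. On day 1, 8 were higher and 9 lower, against 12.2% higher and 19.7% lower of the 3302 genes in this range. The 6 highest of them were Kcnc4 (0.811 FPKM over all libraries), Kcnj9, Kcnip1, Kcnab3, Kcnj2 and Kcnk6 (0.566 FPKM). Kcnip1, a relative of Kcnip3, rose 1.95-fold from 0.511 ± 0.00714 to 0.976 ± 0.148 FPKM (limma-voom adjusted p = 2.9e-05), opposite in sign to Kcnip3. Kcnj2, a strong inward rectifier, fell 1.89-fold from 0.677 ± 0.0321 to 0.345 ± 0.0386 FPKM (limma-voom adjusted p = 3.21e-05), and Kcnk6 fell 2.59-fold from 0.732 ± 0.0397 to 0.273 ± 0.0528 FPKM (3.73e-06). Kcnc4, Kcnj9 and Kcnab3 did not pass on day 1.

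Other genes of this range are named after their values were seen. Kcna5, a delayed rectifier well known from heart and vessels, was at 0.681, 0.866 and 0.634 FPKM in control, 0.169, 0.108 and 0.0722 on day 1, and 0.207, 0.345 and 0.281 on day 3. The groups did not overlap. It fell 6.15-fold on day 1 (limma-voom adjusted p = 2.66e-07), on as few as 5 reads a library, and was still 2.59-fold below control on day 3 (9.48e-05). Kcnj6, an inward rectifier opened by G proteins, was at 0.498, 0.512 and 0.488 FPKM in control, 0.164, 0.186 and 0.175 on day 1, and 0.103, 0.157 and 0.121 on day 3. All treated libraries were below the controls, and day 3 was the lowest group. It fell 2.76-fold on day 1 (limma-voom adjusted p = 3.62e-07) and was 3.86-fold below control on day 3 (3.67e-08). Kcnk12, a relative of Kcnk13, rose 3.65-fold on day 1 from 0.268 ± 0.0440 to 0.992 ± 0.129 FPKM (limma-voom adjusted p = 1.87e-06) and was 2.96-fold lower on day 3 than on day 1. Kcne4, an auxiliary subunit, rose 2.49-fold on day 1 (limma-voom adjusted p = 0.000269). Kcnj13 fell 2.77-fold on day 1 (limma-voom adjusted p = 0.000444) and was 1.69-fold below control on day 3 (0.0461), a call that limma on log2 values did not make (adjusted p = 0.145). Of its exonic bases, 49.1% lie in exons of Gigyf2. On day 3, Kcna5, Kcnj6 and Kcnj13 were the only ones of the 32 that passed, all lower, against 6.03% lower and 2.24% higher of genes in the range. Between the days 6 were higher and 8 lower on day 3, against 15.1% and 11%.

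**Figure D4:**
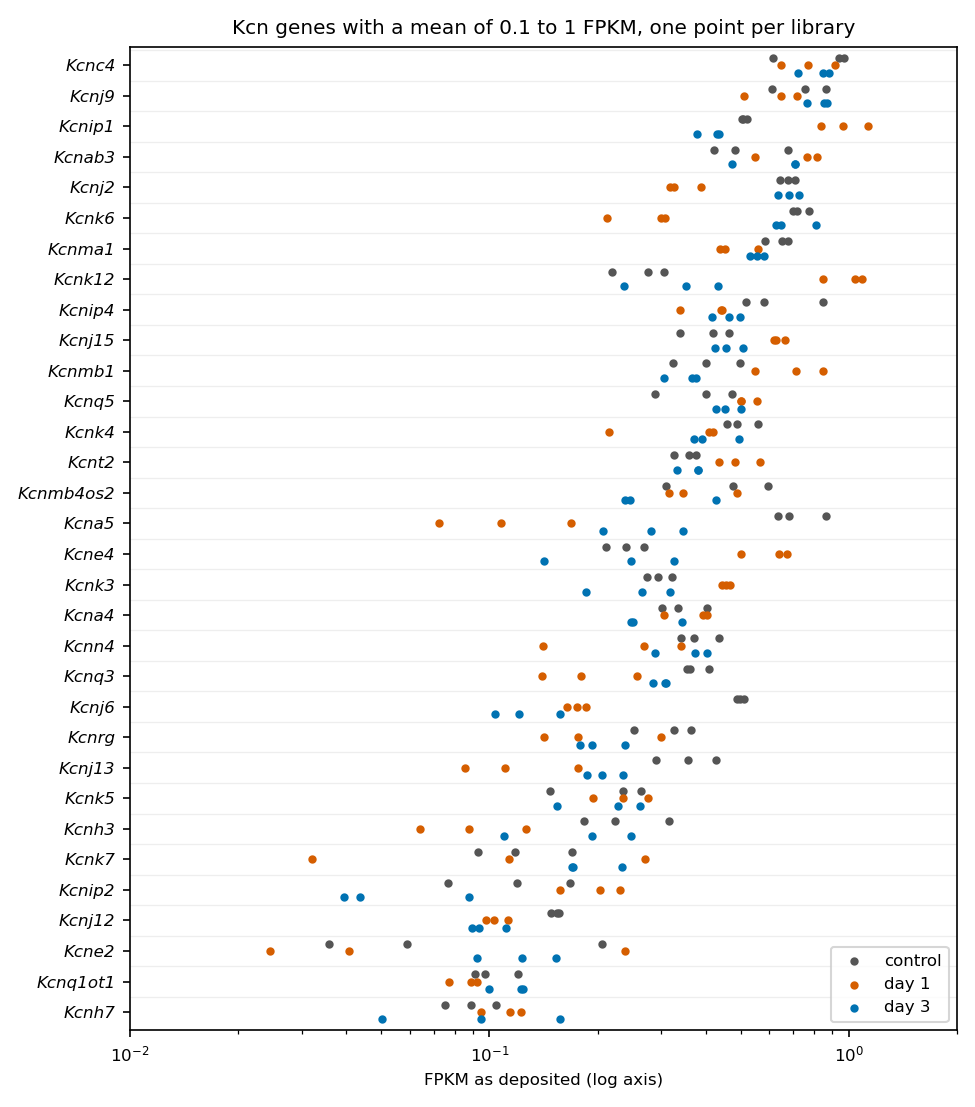
Level of the 32 Kcn genes with a mean of 0.1 to 1 FPKM, with FPKM as deposited on a log axis and 1 point per library in grey (control), orange (day 1) and blue (day 3). The orange points of Kcnk12 and Kcnip1 lie right of the others, those of Kcna5 and Kcnk6 left of them, and for Kcnj6 both treated groups lie left of the controls.

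Several Kcn genes are neighbours in the mouse genome (RefSeq, GRCm38.p6). On day 1, 64.7% of the 34 Kcn genes at 1 FPKM or more were lower. Of the 32 genes of 0.1 to 1 FPKM, 28.1% were lower and 25% higher by limma-voom. Whether neighbours share a direction beyond these shares was not tested. Kcnj16 and Kcnj2 lie 38.2 kb apart on chromosome 11, and both fell on day 1 and were higher again on day 3. Kcna5, Kcna1 and Kcna6 lie in a row on chromosome 6, with gaps of 101 and 62.5 kb. Kcna5 and Kcna1 were lower on both days. Kcna6 passed in neither comparison with control, but by limma-voom, the test used for Kcna5, it was lower on day 3 (log2 fold change -0.10, adjusted p = 0.0298). Kcnj9 and Kcnj10 lie 11.9 kb apart on chromosome 1, at 0.745 ± 0.127 and 297 ± 10.9 FPKM in control. On chromosome 11 Kcnmb1 lies within the span of Kcnip1, and both were higher on day 1, Kcnmb1 by 1.74-fold (limma-voom adjusted p = 0.000947).

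Genes that work with potassium channels were described from 5 lists with 43 members, of which 27 were tested. On day 1, 7 were higher and 11 lower, with a median log2 fold change of -0.06. With 18 of 27 called, their share was near the 62.2% of all tested genes. In the sodium pump, which carries potassium into the cell, 7 of 10 tested genes were lower and 3 higher, against 31.1% each way of all tested genes. Its glial beta subunit gene Atp1b2 fell 1.44-fold from 487 ± 16.6 to 331 ± 12.95 FPKM (limma adjusted p = 1.46e-07), and the pump regulators Fxyd1 and Fxyd7 fell 2.55-fold (5.87e-08) and 2.14-fold (0.00281). Fxyd1 went from 76.7 ± 2.58 to 29.4 ± 2.11 FPKM. Atp1b3 rose 1.25-fold (limma adjusted p = 3.03e-06) and Atp1b1 1.07-fold (0.00810). Of cation-chloride cotransport genes only Slc12a4 of 7 tested passed on day 1, 1.08-fold higher (limma adjusted p = 0.0112). Of 2 tested channel partners outside the Kcn name, Dpp6, an auxiliary subunit of Kcnd channels, fell 1.63-fold on day 1 (limma adjusted p = 4.5e-05) and was 1.60-fold below control on day 3 (0.000786). Amigo1, a membrane protein that binds delayed rectifier channels, fell 1.23-fold on day 1 (limma adjusted p = 0.000379). Among 7 membrane anchoring genes 3 were higher and 2 lower on day 1, with Dlg1, a scaffold that binds channels, up 1.29-fold (limma adjusted p = 5.78e-07). Dtna fell 1.14-fold (limma adjusted p = 0.000836) and Dag1 1.10-fold (0.00474). The single tested cyclic nucleotide-gated relative, Hcn2, did not pass. On day 3, 3 partner genes were higher and 3 lower than control, which made 6 of 27 called where 13.8% of all tested genes were. The number was 2 without control replicate 1, 3 without day 3 replicate 1 and 1 without day 3 replicate 3. Between the days 11 were higher and 5 lower on day 3, against 27.9% and 28.4% of all tested genes. The sulfonylurea receptor genes Abcc8 and Abcc9, which complete channels of Kcnj11 and Kcnj8, were under 0.1 FPKM, as were Kcnj11 (0.0467 FPKM over all libraries) and Kcnj8 (0.0727 FPKM).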

How the data were processed

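RNA of 9 libraries was measured, and the table's columns were tied to libraries through the names given in the descriptions. The submitters' processing notes name STAR 2.7.3a, cutadapt 2.6, FastQC 0.12.1 and DESeq2, and the builds mm10 and GRCm38. No source used here gives the counting program, annotation or strand setting. The authors deposited FPKM for each library. All 20350 genes above 0 gave whole reads to within 0.01 read from these FPKM, a gene length and a library total, and the reads were used for depth and for limma-voom only.

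For the tests the FPKM were rescaled by median-of-ratios factors of 0.975 to 1.02. The 45S precursor Rn45s took 7.67% to 11.9% of reads. The 12611 genes averaging 1 FPKM or more were fitted as log2(FPKM + 0.1) over all libraries by group alone, with an intensity trend (limma 3.58.1, R 4.3.3). Two-sided tests were adjusted by Benjamini-Hochberg over all genes tested, and calls were made under 0.05. Reads of replicates differed beyond sampling noise (chi-square per degree of freedom 1.75 to 4.76).

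Every Kcn gene at 1 FPKM is named, except that 3 of them and 1 partner gene are counted but otherwise not reported here. The 8 highest and the 5 largest called rises and falls of each comparison have all 9 values. Of the rest the 6 highest are named, and of each partner list up to 2 risen and 2 fallen genes. Atp1b2, Hcn2, Abcc8, Abcc9, Kcnma1, Kcnj8 and Kcnj11 are named outside this rule, as are the genes marked so in the text. The members and lists were chosen with earlier results of these data known. Alternatives covered the pseudocount, the filter, scaling, libraries in the fit, the replicate block, the test and each library left out. Figures were drawn with matplotlib 3.10.9.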

Additional observations from a re-analysis of the deposited data

Results flagged for a closer look

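For 22 of the 34 Kcn genes at 1 FPKM or more, 20 of which are given here, the effect on day 3 differed from the effect on day 1, as tested by the comparison of the days themselves in limma (adjusted p under 0.05 over 12611 genes), in which 56.2% of all tested genes were called. Because both effects use the same control libraries, the difference is that between the day 3 and day 1 libraries. On the log2 scale, day 3 minus day 1, it was 0.99 for Kcns1, 0.90 for Kcnj16, 0.68 for Kcnk1, 0.57 for Kcnd3os, 0.56 for Kcnn3 and 0.52 for Kcnt1. It was 0.48 for Kcna2, 0.48 for Kcnip3, 0.46 for Kcna3 and 0.43 for Kcnn1. Smaller positive differences were 0.34 for Kcnab1, 0.33 for Kcnd3, 0.32 for Kcnd1, 0.31 for Kcnk2, 0.31 for Kcnj10, 0.27 for Kcnd2 and 0.18 for Kcnc1. The difference was negative for Kcnj4 at -0.54, Kcnh2 at -0.47 and Kcna6 at -0.10.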

How the results depend on the processing

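Over the 21 other settings run, no Kcn gene called in a comparison changed direction. On day 1, 25 Kcn genes were called (3 higher, 22 lower). The count was 40 with 10 higher when genes of at least 0.1 FPKM were kept, and 41 with 11 higher with no filter. The first of these fits tested 32 more Kcn genes than the 34, and the second also the 27 detected below 0.1 FPKM. No share of all genes called is given for the other settings, so their counts are not set against one. Quantile normalization gave 5 higher and 15 lower, and leaving out single libraries gave 21 to 25 called, 2 to 5 higher and 19 to 22 lower. On day 3 against control, 6 were called (1 higher, 5 lower). The count was 13 with 2 higher and 11 lower by limma-voom, 1 with 0 higher and 1 lower both at an adjusted p under 0.01 and without the 2 libraries with most Rn45s (control replicate 1 and day 3 replicate 2). It was 2 to 8, with 0 to 1 higher and 2 to 7 lower, without single libraries. The genes higher on day 3 numbered 0 with no filter, with FPKM as deposited and with only the 6 libraries compared, and 2 with quantile normalization. From day 1 to day 3, 22 were called (19 higher, 3 lower). The lower genes were 9 at 0.1 FPKM and 11 with no filter, and single libraries left out gave 19 to 22 called, 16 to 20 higher and 2 to 3 lower. Of partner genes, 6 were called on day 3. With only the 6 libraries compared, without the libraries with most Rn45s and without the intensity trend this was 3, at 0.01 it was 1, and without single libraries 1 to 6. The day 1 range was 17 to 18 and the range between the days 15 to 17. The number of Kcn genes at 1 FPKM was 33 to 34. Apart from leaving genes or libraries out, the cause of these changes was not tested.

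Of the 32 genes of 0.1 to 1 FPKM, limma on log2 values called 7 higher and 8 lower on day 1, against 8 and 9 by limma-voom. On log2 values the corresponding numbers were 0 and 2 on day 3, and 3 and 7 between the days. The share of all genes in this range called by limma on log2 values is not given.

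What the replicate numbers stand for is not stated. Deviations of same-numbered libraries from their group means correlated at -0.08 to 0.11, and not every library correlated best with its own number. Libraries of different numbers correlated at -0.15 to 0.15. With 3 libraries a group these values cannot decide whether libraries are paired. With the replicate number as a block, 3 were higher and 22 lower on day 1, 1 higher and 6 lower on day 3, and 19 higher and 2 lower between the days.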

Other observations

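Some values stand outside the comparisons above. Kcnip1 and its neighbour Kcnmb1 were below 1 FPKM in every group mean, and from day 1 to day 3 Kcnip1 was 2.39-fold lower (limma-voom adjusted p = 1.83e-06) and Kcnmb1 2.03-fold lower (0.000107). Kcnip2 was 3.45-fold lower between the days (limma-voom adjusted p = 0.00142) on 3 to 16 reads a library. The long antisense transcript Kcnq1ot1, known from genomic imprinting, was at 0.103 ± 0.0151 FPKM in control, 0.0862 ± 0.00819 on day 1 and 0.115 ± 0.0133 on day 3. It was 1.31-fold higher on day 3 than on day 1 (limma-voom adjusted p = 0.00592), a call that limma on log2 values did not make (adjusted p = 0.479). Its host Kcnq1 had 8 reads over all libraries. These genes were picked after their values were seen.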
